A study of Mus musculus with 25 samples.

Results

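Cish, Socs1, Socs2, Socs3 and Pim1 are genes that STAT transcription factors switch on after a cytokine binds its receptor. They were followed here through macrophages sorted from mouse lung. The 5 genes were chosen by symbol, and all 5 were found among the 13482 genes of the deposited count table. Each of them passed the filter on low counts in every fit. The study sequenced polyA RNA of 25 libraries, with SMART-seq v4 and Nextera XT library preparation, to ask what the IL-9 receptor and arginase 1 of the cell itself do in interstitial macrophages (IM). The mice were mixed bone marrow chimeras, in which marrow of WT and of knockout donors rebuilds the blood cells of one host, so that both genotypes develop side by side. In the IL9R chimeras, B6/BoyJ hosts received Il9r-/- marrow together with WT marrow of BoyJ, a congenic strain that carries another CD45 allele. In the ARG1 chimeras the donors were WT and ARG1 CKO, a conditional knockout whose Cre driver, like the kind of Il9r allele and the age of the mice, was not given in the sources used here.

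There were 8 groups of tumor libraries. CD11c- IM of the IL9R chimeras gave 2 WT and 3 Il9r KO libraries, and CD11c+ IM gave 2 WT and 3 Il9r KO libraries. CD11c- IM of the ARG1 chimeras gave 3 WT and 3 Arg1 CKO libraries, and CD11c+ IM gave 3 WT and 2 Arg1 CKO libraries. The tumor was B16, a mouse melanoma line, in the lung. A further 4 groups of 1 library each, WT and knockout of each chimera kind, held total macrophages of mice labelled naive, although a general note of the labels names a B16 tumor for every sample. Tumor and sorted population therefore cannot be told apart between naive and tumor libraries. No animal is named, so replicates may share mice, and a p-value reflects the spread among libraries, which may be technical.

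Cytokine receptors without kinase activity carry JAK kinases, which phosphorylate STAT proteins; these enter the nucleus and switch on target genes. Among the targets are the brakes of the same pathway. CIS (Cish) and SOCS2 bind phosphorylated receptors and are best known as STAT5 targets that limit signals of the GM-CSF, interleukin and growth hormone kind. SOCS1 blocks JAKs directly and restrains interferon signaling, and SOCS3 blocks JAKs at gp130 and related receptors and restrains IL-6 signaling. Pim1 encodes a serine/threonine kinase that favors survival and growth and is induced by several STATs. In the lung, GM-CSF acts through STAT5 to form alveolar macrophages, and the IL-9 receptor, which pairs with the common gamma chain, also signals through JAKs and STATs.

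The start regions of Cish and Socs3 are shown because STAT dimers bind the palindrome TTCNNNGAA, and both regions hold it. Windows of 250 bases before to 50 after the start were taken from RefSeq (GRCm38.p6) for Cish, Socs1, Socs3 and Pim1, the last with 2 start sites. The motif reads the same on both strands, so 1 search covers both. Capitals mark the matches, each sequence runs 5′ to 3′ on the strand of its gene, and positions are counted from the start of transcription.
Cish, chr9:107296559-107296688, plus strand: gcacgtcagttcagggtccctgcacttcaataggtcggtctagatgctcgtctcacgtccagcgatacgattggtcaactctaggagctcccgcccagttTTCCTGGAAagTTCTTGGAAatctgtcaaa
Socs3, chr11:117969492-117969616, minus strand: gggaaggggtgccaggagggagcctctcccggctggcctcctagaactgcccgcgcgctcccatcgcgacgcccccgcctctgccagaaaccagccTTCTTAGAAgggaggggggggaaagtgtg
In Cish the matches lay side by side at bases 1 to 9 and 12 to 20 after the start. In Socs3 the match lay 154 to 146 bases before it. The windows of Socs1 and Pim1 held no match. Of 32851 windows of 300 bases, 8.3% held at least 1 match and 0.457% held 2 or more. The same palindrome with 1 more spacer base was in none of the windows of these genes and in 6.95% of all windows. A match of letters is a description and not evidence of binding.

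The libraries held between 32308968 and 56904167 counts each, and between 12113 and 13209 genes had a read. Levels below are CPM, the counts of a gene per 1000000 counts of the library, scaled between libraries by TMM. The lowest count of any of the 5 genes was 112, for Socs2, so counting error was small beside the spread between libraries. Itgax, which encodes the sorting marker CD11c, averaged 402 CPM where CD11c was the gate and 22.1 CPM in the CD11c- sort. Arg1 averaged 2271 CPM in CD11c- Arg1 CKO against 4813 CPM in the matching WT libraries, and 525 against 1756 CPM in CD11c+ libraries. Il9r went against its label. It had no read in the 12 WT libraries and 1.79 to 12.5 CPM in the 7 libraries labelled Il9r KO. Arg1 CKO libraries also held Il9r reads, up to 1.89 CPM (61 counts) in a CD11c+ library. The counts do not show which exons the reads came from. Macrophage markers were detected in all libraries, including Cd68 at 1381 CPM or more. CD11c+ library 3 labelled Il9r KO stood apart, with more reads of alveolar macrophage, T cell and melanoma genes than its group. Where a call or sign of any of the 5 genes changed without it, this is named.

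Per kilobase of exon, the 5 genes differed widely in level. In CD11c- IM, Socs3 averaged 200.6 CPM per kb, Pim1 14.4, Cish 2.80, Socs1 2.44 and Socs2 0.566. In naive macrophages the order was Socs3 (248.6 CPM per kb), Cish (15.5), Pim1 (14.8), Socs2 (6.07) and Socs1 (2.35). Exon lengths came from GENCODE vM21 (mm10). They cover all annotated transcripts and so understate the level of genes with long unused exons. Cish (chromosome 9, 107296026 to 107302784) and Pim1 (chromosome 17, 29490753 to 29496112) overlap genes on the other strand that are not in the table, and the strand setting of the counting was not given in the sources used here. Socs2 (chromosome 10, 95385362 to 95417180), Socs1 (chromosome 16, 10782240 to 10785536) and Socs3 (chromosome 11, 117966079 to 117970047) overlap no annotated gene.

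Across the libraries, Socs2 spanned 25.7-fold, from 2.77 to 71.1 CPM, and Cish 10.9-fold, from 9.80 to 107 CPM. Pim1 spanned 4.35-fold (19.9 to 86.5 CPM), Socs3 3.28-fold (273 to 895 CPM) and Socs1 2.74-fold (4.06 to 11.1 CPM). By group mean, Cish and Socs2 followed the populations, and the other genes much less so. With the 12 groups ordered by mean level, the 4 naive groups came first for both Cish and Socs2, then the 4 CD11c+ groups, then the 4 CD11c- groups. Between neighbors in that order, 6 of 11 pairs overlapped for Cish and 6 of 11 for Socs2, against 10 of 11 for Socs1, 8 of 11 for Socs3 and 10 of 11 for Pim1. The same count over all genes was not made, so these counts do not show a division by population. For Cish the lowest CD11c+ group (ARG1 WT, 18.1 to 39.9 CPM) overlapped the highest CD11c- group (Il9r KO, 11.7 to 36.0 CPM). Groups of 1 library have no spread of their own, so the gaps between naive groups are not measured differences. For Cish and Socs2 the 4 naive groups were neighbors, which by itself lowers their counts of overlaps.

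**Figure D1:**
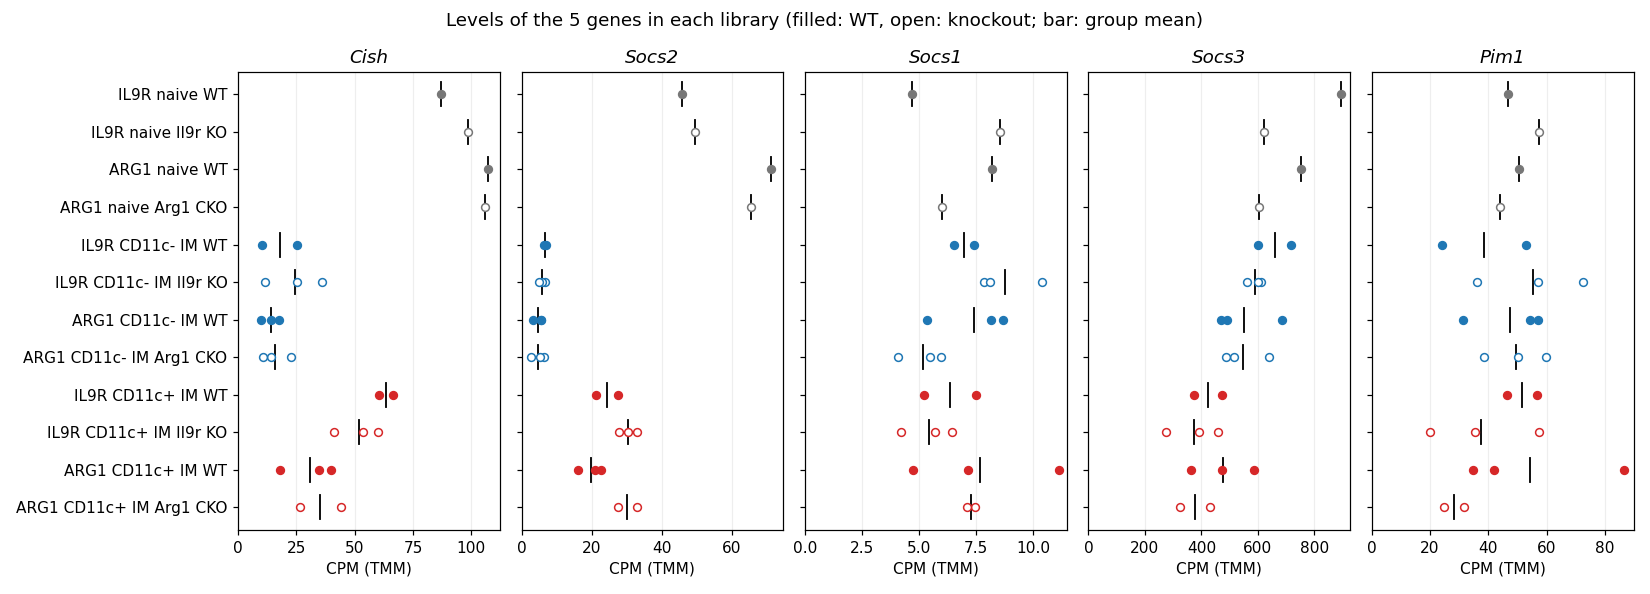
Level of each gene (CPM with TMM scaling, horizontal axis) in each of the 25 libraries, by group. Filled points are WT and open points knockout libraries, gray is naive, blue CD11c- and red CD11c+ IM, and black bars are group means. By group mean, Cish and Socs2 are highest in naive, lower in CD11c+ and lowest in CD11c- libraries, while Socs1 and Pim1 show no such order.

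Cish was higher in CD11c+ than in CD11c- IM and highest in naive macrophages. The naive WT libraries had 87.1 (IL9R chimera) and 107 CPM (ARG1 chimera). The CD11c+ WT libraries had 60.2 and 66.3 CPM in the IL9R chimeras and 39.9, 18.1 and 34.6 CPM in the ARG1 chimeras. The CD11c- WT libraries had 25.4 and 10.3 CPM in the IL9R chimeras and 17.7, 9.80 and 14.2 CPM in the ARG1 chimeras. Within each chimera kind every CD11c+ WT library lay above every CD11c- WT library, by a narrow margin in the ARG1 chimeras, as was so for 7.58% of genes. Across kinds the ranges overlapped. The means were 97.2 ± 14.3 (SD, n = 2), 43.8 ± 19.6 (n = 5) and 15.5 ± 6.39 CPM (n = 5).

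The knockout libraries, which are other libraries of the same kinds of mice, showed the same order for Cish. It had 98.7 and 106 CPM in the naive libraries labelled Il9r KO and Arg1 CKO. The CD11c+ libraries had 60.1, 41.3 and 53.6 CPM with the label Il9r KO and 26.5 and 44.0 CPM with Arg1 CKO. The CD11c- libraries had 36.0, 11.7 and 25.3 CPM with Il9r KO and 22.6, 14.0 and 10.5 CPM with Arg1 CKO. Within each kind the CD11c+ values again lay above the CD11c- values, as they did for 6.25% of genes.

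Socs2 separated the populations without overlap. Naive WT libraries had 45.7 (IL9R) and 71.1 CPM (ARG1), and naive libraries labelled Il9r KO and Arg1 CKO had 49.4 and 65.3 CPM. CD11c+ WT libraries had 21.2 and 27.4 CPM (IL9R) and 16.0, 22.7 and 20.8 CPM (ARG1), and CD11c+ knockout libraries had 27.6, 32.9 and 30.3 CPM (Il9r KO) and 32.8 and 27.4 CPM (Arg1 CKO). CD11c- libraries ranged from 3.28 to 6.88 CPM in WT (median 5.51, n = 5) and from 2.77 to 6.72 CPM in knockout (median 5.56, n = 6). Every CD11c+ library was above every CD11c- library, and every naive library above every CD11c+ library, in both chimera kinds and genotypes. The first held for 1.46% of the 13434 genes tested in tumor libraries, the second for 6.25%, and both together for 12 genes (0.0893%).

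The difference between CD11c+ and CD11c- IM was tested with edgeR's quasi-likelihood test over 13434 genes in one fit of the 21 tumor libraries. A gene was called at a Benjamini-Hochberg adjusted p under 0.05, and the log2 fold change is given with its standard error (SE). In WT libraries 2 of the 5 genes were called higher and 0 lower, where 11.5% of all genes were called (5.44% higher and 6.1% lower). Cish rose by 1.48 (SE 0.32, adjusted p = 0.00543 by edgeR), a 2.78-fold difference. Socs2 rose by 1.96 (SE 0.23, adjusted p = 2.01e-05 by edgeR), a 3.90-fold difference, and ranked 31 of 13434 genes by p. The median over the 5 genes was 0.30, against 0.00 over all genes tested.

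In the knockout libraries 2 of the 5 genes were called higher and 1 lower, where 12.3% of all genes were called (5.91% higher and 6.36% lower). Cish rose by 1.13 (SE 0.30, adjusted p = 0.0166 by edgeR) and Socs2 by 2.51 (SE 0.21, adjusted p = 5.67e-07 by edgeR). Socs2 was 5.68-fold higher and ranked 6 of 13434 genes. The call of Cish was lost without Arg1 CKO CD11c+ library 2 (adjusted p = 0.1 by edgeR). The median over the 5 genes was -0.10. A test of the knockout difference minus the WT difference, added after the data were seen, called none of the 5 genes and 0% of all genes (906 genes at an unadjusted p under 0.05, and 5 called by DESeq2). For Socs2 that difference was 0.54 (95% interval -0.09 to 1.17, adjusted p = 0.727 by edgeR), and for Cish -0.35 (-1.27 to 0.56).

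**Figure D2:**
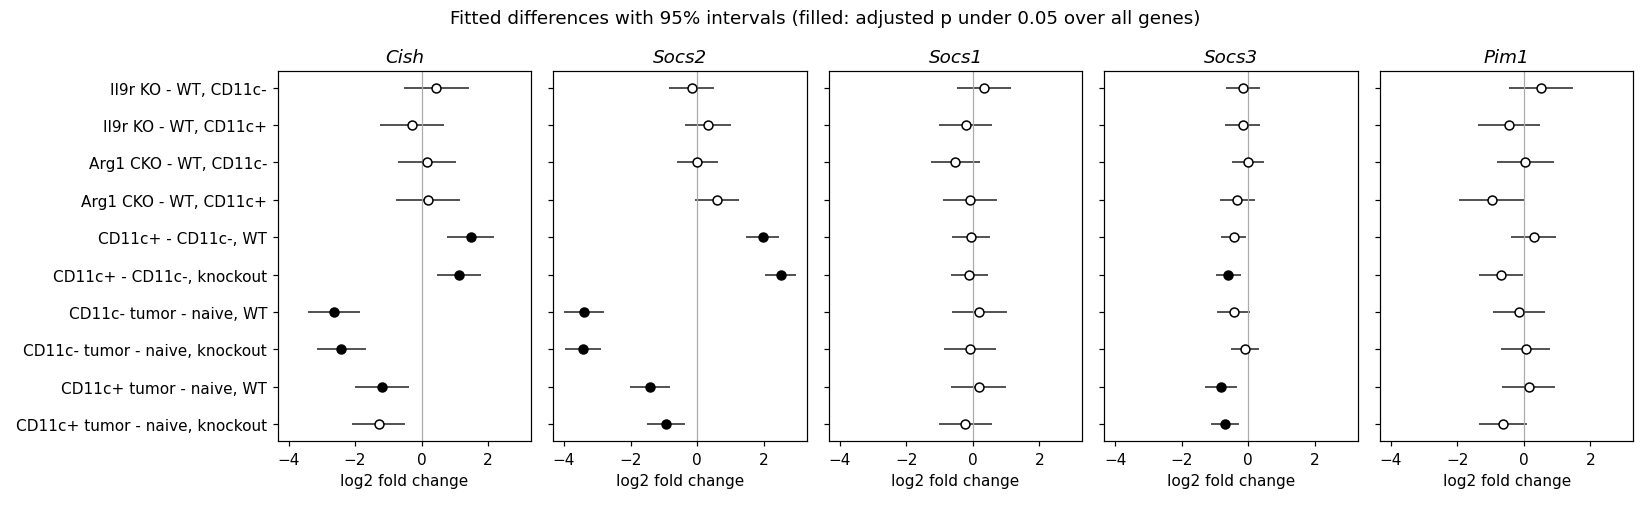
Log2 fold change (horizontal axis) of each gene in 10 comparisons, with 95% intervals as lines. Filled points had an adjusted p under 0.05 over all genes by edgeR; tumor minus naive comparisons of one genotype share their naive libraries. Cish and Socs2 lie right of 0 for CD11c+ against CD11c- and left of 0 for tumor against naive. No point is filled in the comparisons of knockout with WT.

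Socs3 was on average lower in CD11c+ than in CD11c- IM in both genotypes, the opposite of Cish and Socs2. WT libraries had 718 and 599.9 CPM (IL9R) and 492, 469.6 and 686 CPM (ARG1) in CD11c- IM. They had 473 and 373 CPM (IL9R) and 587, 364 and 473 CPM (ARG1) in CD11c+ IM, so the subsets overlapped. The WT difference was -0.43 (SE 0.17, adjusted p = 0.103 by edgeR) and was not called.

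In knockout CD11c- IM, Socs3 had 562, 611 and 600.3 CPM (Il9r KO) and 516, 488 and 638 CPM (Arg1 CKO). In knockout CD11c+ IM it had 459, 391 and 273 CPM (Il9r KO) and 325 and 432 CPM (Arg1 CKO), and no library overlapped, as was so for 5.24% of genes in the lower direction. Socs3 fell by 0.60 on the log2 scale (SE 0.16, adjusted p = 0.0174 by edgeR). The call was lost without Arg1 CKO CD11c+ library 1 (adjusted p = 0.135 by edgeR) and without both Il9r KO libraries numbered 3 (adjusted p = 0.0565). The knockout difference minus the WT difference was -0.16 (95% interval -0.64 to 0.32).

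Socs1 was the least variable gene and showed no tested difference between subsets. It averaged 7.13 ± 2.52 CPM (SD, n = 5) in CD11c+ and 7.22 ± 1.33 CPM (n = 5) in CD11c- WT libraries, and 6.17 ± 1.29 (n = 5) and 6.97 ± 2.26 CPM (n = 6) in knockout libraries. The log2 difference was -0.05 in WT (95% interval -0.60 to 0.50) and -0.10 in knockout libraries (-0.62 to 0.42), so differences of up to about these bounds could not be told from none.

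Pim1 varied within groups as much as between them. CD11c+ WT libraries had 56.6 and 46.4 CPM (IL9R) and 86.5, 42.1 and 34.8 CPM (ARG1), and CD11c- WT libraries had 24.2 and 52.8 CPM (IL9R) and 54.2, 31.4 and 57.0 CPM (ARG1). CD11c+ knockout libraries had 57.6, 35.3 and 19.9 CPM (Il9r KO) and 24.7 and 31.5 CPM (Arg1 CKO). CD11c- knockout libraries had 72.4, 57.2 and 36.3 CPM (Il9r KO) and 59.9, 38.5 and 50.3 CPM (Arg1 CKO). The groups overlapped in both genotypes, and the differences of 0.30 in WT (adjusted p = 0.606 by edgeR) and -0.69 in knockout libraries (adjusted p = 0.152) were not called. The knockout value passed the threshold without Il9r KO CD11c+ library 1 (-0.92, adjusted p = 0.0488 by edgeR). Their difference was -0.99 (SE 0.43, unadjusted p = 0.0326 and adjusted p = 0.722 by edgeR).

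Against naive macrophages, Cish and Socs2 were lower in tumor IM of both subsets. These fits used the 12 WT libraries (13170 genes) or the 13 knockout libraries (13356 genes), with population and chimera kind as terms, and the comparisons of CD11c- and of CD11c+ IM share the naive libraries. In CD11c- WT IM, 2 of the 5 genes were called, both lower, where 23.2% of all genes were called (10.2% lower). Cish fell by 2.63 on the log2 scale (SE 0.35, adjusted p = 0.00012 by edgeR) and was 6.19-fold lower. Socs2 fell by 3.40 (SE 0.27, adjusted p = 2.27e-06 by edgeR), was 10.6-fold lower and ranked 15 of 13170 genes. In the knockout libraries Cish and Socs2 were again the 2 genes called, where 23% of all genes were called (11.7% lower). Cish fell by 2.42 (SE 0.33, adjusted p = 0.000375 by edgeR) and Socs2 fell by 3.44 (SE 0.24, adjusted p = 4.19e-06), rank 2 of 13356 genes.

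In CD11c+ IM the distance from naive was smaller than in CD11c- IM for Cish and Socs2, and larger for Socs3. In WT libraries 3 of the 5 genes were called lower and 0 higher, where 23.2% of all genes were called (9.54% lower and 13.7% higher). Socs2 fell by 1.41 on the log2 scale (SE 0.27, adjusted p = 0.00222 by edgeR), Cish fell by 1.19 (SE 0.36, adjusted p = 0.0291) and Socs3 fell by 0.82 (SE 0.21, adjusted p = 0.0129). None of the 3 was called without the ARG1 naive WT library, which left 1 naive library (-0.82 with adjusted p = 0.166 for Socs2, -0.61 with 0.474 for Cish and -0.91 with 0.072 for Socs3 by edgeR). Socs3 was also not called without the IL9R naive WT library (adjusted p = 0.129 by edgeR). With the replicate number as a block, Cish had -0.85 and an adjusted p of 0.0853 by edgeR.

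In knockout CD11c+ IM 2 of the 5 genes were called lower, where 5.71% of all genes were called (2.7% lower). That number of genes, 763, ran from 3 to 2123 with 1 library left out. Socs2 fell by 0.94 on the log2 scale (SE 0.26, adjusted p = 0.0492 by edgeR) and Socs3 by 0.71 (SE 0.18, adjusted p = 0.0387). Cish, at -1.28 (SE 0.36, adjusted p = 0.0502), was just outside. Without Il9r KO CD11c+ library 3, Cish was called (-1.30, adjusted p = 0.0368 by edgeR). With the replicate block none of these genes was called, and adjusted p was 0.146 for Socs2 and 0.0776 for Socs3 by edgeR. Leaving out 1 library moved the number called between 0 and 3. It was 0 without Arg1 CKO CD11c+ library 1 or 2, without the naive Arg1 CKO library and without Il9r KO CD11c+ library 2, and 1 without Il9r KO CD11c+ library 1.

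Socs3 in naive macrophages was 895 (IL9R) and 754 CPM (ARG1) in WT and 623 (Il9r KO) and 603 CPM (Arg1 CKO) in knockout libraries. Against naive, CD11c- IM differed in Socs3 by -0.44 (adjusted p = 0.161 by edgeR) in WT and by -0.11 (adjusted p = 0.715) in knockout libraries, neither of them called. Socs1 had 4.69 and 8.17 CPM in naive WT and 8.55 and 5.98 CPM in naive knockout libraries, within the range of the tumor libraries. Pim1 had 46.7 and 50.7 CPM in naive WT and 57.6 and 44.0 CPM in naive knockout libraries, also within that range. Neither gene was called against naive in either subset or genotype.

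In no comparison of knockout with WT cells was any of the 5 genes called. Over both subsets together, 0 of 5 were called for the label Il9r KO, where 0.0521% of all genes were called, and 0 of 5 for Arg1 CKO, where 0.0372% were. Per subset the count was also 0 of 5, where 0.0223% (Il9r KO, CD11c-), 0.0298% (Il9r KO, CD11c+), 0.00744% (Arg1 CKO, CD11c-) and 0.0447% (Arg1 CKO, CD11c+) of genes were called. DESeq2 and limma-voom also called 0 of 5 in each. At an unadjusted p under 0.05 there was 1 gene, Pim1, in 1 comparison (Arg1 CKO, CD11c+), where 779 of all 13434 genes were. Since few genes of any kind were called and groups held 2 or 3 libraries, the intervals matter more than the counts.

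For the label Il9r KO against WT over both subsets, Cish differed by 0.08 (95% interval -0.58 to 0.74) and Socs2 by 0.08 (-0.38 to 0.54) on the log2 scale. Socs3 differed by -0.17 (-0.51 to 0.18), Socs1 by 0.06 (-0.50 to 0.61) and Pim1 by 0.04 (-0.61 to 0.68). These directions rest on libraries whose Il9r reads go against their label. In CD11c- IM, Socs1 did not overlap (7.82 to 10.4 CPM against 6.52 to 7.41 CPM in WT), as was so for 9.48% of genes in the higher direction. In CD11c+ IM, Socs2 lay above WT (7.74% of genes) and Cish just below it (6.88% of genes), with Cish at 60.1 CPM in the highest Il9r KO and 60.2 CPM in the lowest WT library. With 2 libraries against 3, such gaps were common.

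For Arg1 CKO over both subsets, Cish differed by 0.18 (95% interval -0.45 to 0.81), Socs2 by 0.30 (-0.13 to 0.74) and Socs3 by -0.17 (-0.50 to 0.16). Socs1 differed by -0.30 (-0.83 to 0.22) and Pim1 by -0.45 (-1.07 to 0.17). In CD11c+ IM, Socs2 was at 27.4 and 32.8 CPM in Arg1 CKO and at 16.0 to 22.7 CPM in WT libraries, a difference of 0.60 (SE 0.30, adjusted p = 0.775 by edgeR). In the same cells Pim1 was at 24.7 and 31.5 CPM against 34.8 to 86.5 CPM, a difference of -0.96 (SE 0.45, unadjusted p = 0.0469 and adjusted p = 0.775 by edgeR). Neither gene overlapped, nor did 10% of genes in the higher and 9.86% in the lower direction. Without the ARG1 CD11c+ WT library 1, which held the highest Pim1 value of the series, the Pim1 difference was -0.45.

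Tests of whether the knockout difference varied between subsets called 0 of 5 genes in either chimera kind, and 0% of all genes. At an unadjusted p under 0.05 there were 740 genes for Il9r KO and 519 for Arg1 CKO, and DESeq2 called 7 and 18. The largest of these differences among the 5 genes were those of Pim1, at -0.97 (SE 0.62) for Il9r KO and -1.01 (SE 0.59) for Arg1 CKO. The Il9r KO difference minus the Arg1 CKO difference also called 0 of 5, where 0.0149% of genes were called. In naive macrophages, with 1 library each and no test, the log2 ratio of knockout to WT was 0.18 (IL9R) and -0.02 (ARG1) for Cish and 0.11 and -0.12 for Socs2. It was 0.86 and -0.45 for Socs1, -0.52 and -0.32 for Socs3, and 0.30 and -0.20 for Pim1. None of the 5 was past 2-fold, where 20.7% (IL9R) and 9.58% (ARG1) of all genes were.

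The pathway around these genes was read from lists of its parts, in CD11c+ against CD11c- IM, where 5.44% (WT) and 5.91% (knockout) of all genes were higher and 6.1% and 6.36% lower. Among ligands, 0 of 10 tested were higher in either genotype, and 1 (WT) and 3 (knockout) were lower. Under the alternatives tried, the number lower ran from 0 to 5 in WT and from 1 to 5 in knockout libraries. Il10, an anti-inflammatory cytokine that signals through STAT3, fell by 1.01 on the log2 scale in WT (47.0 against 92.6 CPM, adjusted p = 0.0139 by edgeR) and by 1.54 in knockout libraries (adjusted p = 0.000352). The median over the ligands was -0.50 in WT and -1.33 in knockout libraries, against 0.00 over all genes.

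Of 26 receptors that signal through JAKs, 2 were higher and 3 lower in WT, and 4 higher and 4 lower in knockout libraries. Under the alternatives these counts ran from 0 to 5 and 2 to 8 in WT, and from 1 to 5 and 3 to 8 in knockout libraries. Il7r, the IL-7 and TSLP receptor chain, rose by 0.92 in WT (adjusted p = 0.0237 by edgeR) and by 1.35 in knockout libraries (adjusted p = 0.00073). Il4ra, the chain shared by the IL-4 and IL-13 receptors, fell by 1.15 on the log2 scale in WT (341 against 719 CPM, adjusted p = 0.000686 by edgeR) and by 1.07 in knockout libraries (adjusted p = 0.000637). Csf2rb, the signaling chain of the GM-CSF receptor, rose by 0.69 in knockout libraries (328 against 199 CPM, adjusted p = 0.00502 by edgeR). In WT libraries it had 152 to 274 CPM in CD11c- and 219 to 367 CPM in CD11c+ IM, overlapping, and was not called.

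Of 10 JAKs and STATs, 0 were higher in either genotype, 4 were lower in WT and 1 in knockout libraries. In WT, Stat2 fell by 1.70 on the log2 scale, Jak2, a kinase of the GM-CSF receptor, fell by 0.71, Stat6 fell by 0.59 and Stat3 fell by 0.56 (adjusted p = 0.00018, 0.0469, 0.0253 and 0.0117 by edgeR). Stat2, which acts in type I interferon signaling, also fell in knockout libraries, by 1.16 (adjusted p = 0.00224 by edgeR). Neither Stat5a nor Stat5b was called in either genotype. Over the alternatives tried, the number lower ran from 1 to 7 in WT and from 1 to 5 in knockout libraries.

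Of 6 relatives of the 5 genes (Socs4 to Socs7, Pim2 and Pim3), only Socs6 was called, in WT, where it fell by 0.54 on the log2 scale (adjusted p = 0.0163 by edgeR). Of the ubiquitin ligase partners of SOCS proteins 2 were tested, and Rnf7 fell by 0.47 in knockout libraries (adjusted p = 0.0344 by edgeR). Of 13 other brakes on the pathway 0 were higher, and 2 (WT) and 1 (knockout) were lower. Usp18, an interferon-induced brake on the type I interferon receptor, fell by 1.18 and by 1.38 (adjusted p = 0.0127 and 0.00285 by edgeR). Under the alternatives, the number lower ran from 0 to 1 for the relatives in WT. It also ran from 0 to 1 for the ligase partners in knockout libraries. For the other brakes it ran from 0 to 3 in WT and from 1 to 3 in knockout libraries.

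Of 19 other STAT-induced genes 0 were higher, while 5 were lower in WT and 8 in knockout libraries, where 6.1% and 6.36% of all genes were lower. Over the alternatives the number lower ran from 1 to 12 and from 3 to 12, and up to 1 was higher. They included Bcl3, a nuclear regulator of NF-kappaB, which fell by 0.62 and 0.85 on the log2 scale, and Bcl6, a transcriptional repressor, which fell by 0.70 and 0.95 (adjusted p = 0.0181, 0.00119, 0.0413 and 0.00479 by edgeR). The list linked to STAT6 and alternative activation was mixed, with 5 higher and 1 lower of 11 in WT and 4 higher and 4 lower in knockout libraries. Its chemokines Ccl17 and Ccl22 rose by 6.56 and 5.95 in WT (adjusted p = 2.68e-05 and 0.000819 by edgeR), while Arg1 fell by 2.25 in knockout libraries (adjusted p = 0.00122). Under the alternatives this list had 3 to 5 higher and 0 to 3 lower in WT. In knockout libraries it had 4 to 5 higher and 1 to 4 lower.

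**Figure D3:**
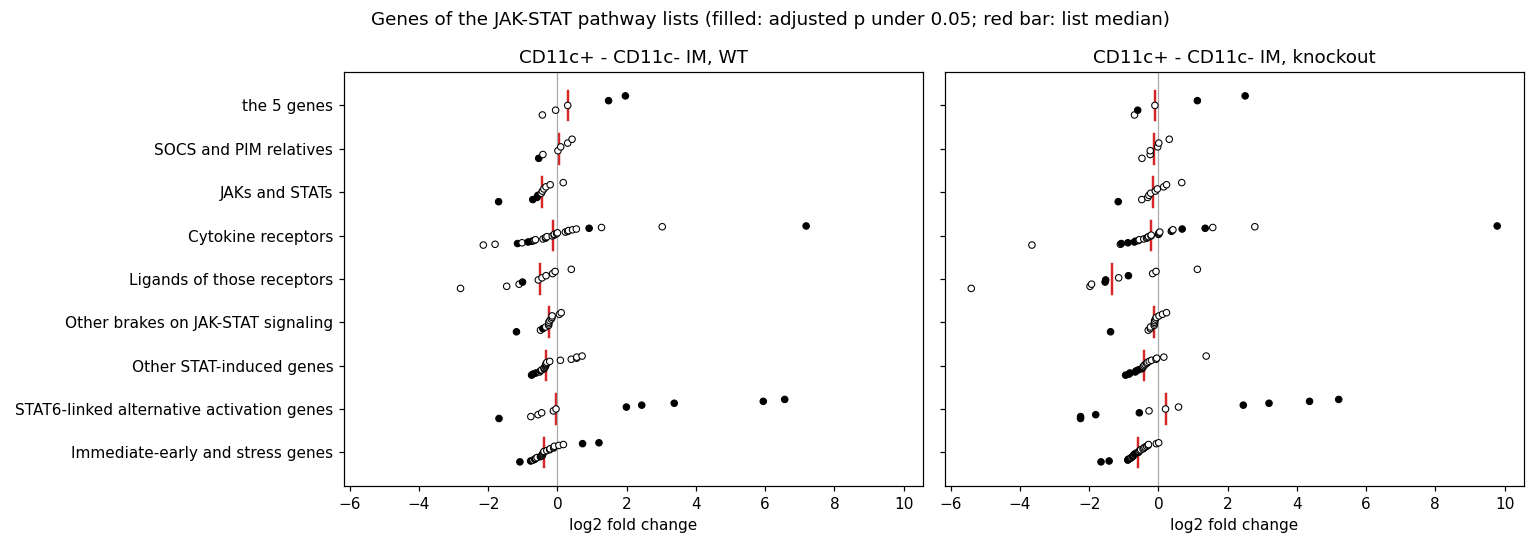
Log2 fold change of CD11c+ against CD11c- IM (horizontal axis) for the 5 genes and the genes of 8 lists, in WT (left) and knockout libraries (right). Each point is a gene, filled where adjusted p was under 0.05 over all genes by edgeR, and red bars are medians. Cish and Socs2 are the filled points right of 0 in the top row, and the filled points for other STAT-induced genes all lie left of 0.

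Against naive WT macrophages, the parts of the pathway moved in both directions in CD11c- tumor IM. Il4ra rose by 1.48 and Il10 by 3.25, while Csf2ra, the ligand-binding chain of the GM-CSF receptor, fell by 0.77 on the log2 scale (adjusted p = 0.00137, 4.23e-05 and 0.00674 by edgeR). Of the 19 other STAT-induced genes, 8 were higher and 4 lower, where 13% of all genes were higher and 10.2% lower, including Bcl2l1, a survival gene, which rose by 1.74, and Irf4, a transcription factor, which fell by 3.02 (adjusted p = 9.82e-05 and 0.000128 by edgeR). In knockout libraries Csf2ra fell by 0.67 (adjusted p = 0.00376 by edgeR), and 5 of the 19 genes were higher and 2 lower, where 11.3% and 11.7% of all genes were. Over the alternatives these counts ran from 5 to 10 higher and 2 to 5 lower in WT, and from 0 to 8 and 0 to 5 in knockout libraries. In CD11c+ WT IM 6 were higher and 4 lower, where 13.7% and 9.54% of all genes were. Over the alternatives these counts ran from 2 to 7 and from 0 to 7. Among the higher genes was Ccnd1, a cyclin, which rose by 2.47 (adjusted p = 8.56e-05 by edgeR).

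The genes whose levels followed each member most closely over the 25 libraries are given as a description, since these libraries share their populations and depth. For Socs2 they were F11r (Pearson r = 0.97), Sgk1 (0.96), Ramp1 (0.96), Rnase2a (0.95) and Itgax (0.95), the gene of the sorting marker. For Cish they were Cd82 (0.92), Pbxip1 (0.92), Tnfsf13b (0.91), Tle1 (0.90) and B4galnt1 (0.90). For Socs3 they were Jun (0.84), Nupr1 (0.84), Egr1 (0.84), Adgre5 (0.83) and Klf6 (0.83), of which Jun, Egr1 and Klf6 are immediate-early genes. Socs1 and Pim1 had looser company, led by Ccdc85b (0.73) and Per1 (0.74).

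Cish and Socs2 correlated at r = 0.87 over the 25 libraries. Over deviations from the group means in the 21 tumor libraries, r was 0.15, so within groups the levels of Cish and Socs2 followed each other little. The pair with the closest deviations was Socs1 and Pim1, at 0.83. The closest genes by deviations were Scimp (0.89), Stac2 (0.86) and Il1rn (0.86) for Cish, and Ear2 (0.86), Gadd45a (0.83) and Leprotl1 (0.82) for Socs2. For Socs1 they were Twf2 (0.85), Rac2 (0.85) and Nudt1 (0.85), for Socs3 Padi4 (0.88), Bambi (0.85) and Dapk3 (0.83), and for Pim1 Slc15a3, Rhog and Myl12a (0.94 each).

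**Figure D4:**
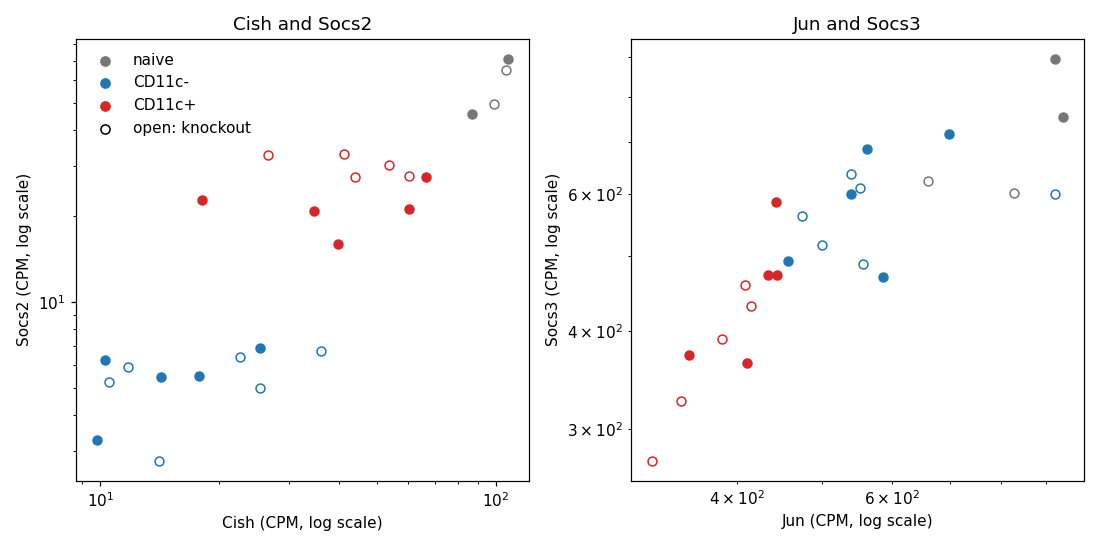
Level of Socs2 against Cish (left) and of Socs3 against Jun (right), in CPM on log axes, with 1 point per library. Gray is naive, blue CD11c- and red CD11c+, and open points are knockout libraries. The populations form separate groups along Socs2, while CD11c+ and CD11c- overlap along Cish (r = 0.87 over 25 libraries, 0.15 within groups). Socs3 and Jun fall together from naive to CD11c+ libraries (r = 0.84).

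Markers of other cells moved with Cish and Socs2, and their part in the result was not tested. In bulk samples fewer cells of a type and less RNA per cell cannot be told apart. The summed level of 9 dendritic cell markers, all measured, was 84.9 to 256 CPM in naive, 137 to 315 CPM in CD11c+ and 5.49 to 72.7 CPM in CD11c- libraries. Ccr7 was the largest part of it, with means of 110, 136 and 9.66 CPM. Over the 25 libraries the sum correlated with Socs2 at r = 0.88 and with Cish at 0.77, within the 11 CD11c- libraries at 0.72 and 0.66, and within the 10 CD11c+ libraries at -0.03 and -0.07. Of the defining markers Flt3 was at 0 in 1 and Zbtb46 in 3 of 11 CD11c- libraries. Of 17 T and NK cell markers 15 were measured, and their sum was 107 to 221 CPM in naive, 26.5 to 232 CPM in CD11c+ and 7.62 to 30.3 CPM in CD11c- libraries. Cd2 was most of it in naive and the largest part in CD11c+ libraries (means of 147 and 36.9 CPM). In CD11c- libraries Cd2 was not the largest part (2.84 CPM, below Cd4 at 4.69). Cd3e averaged 0.41, 0.58 and 0.17 CPM and was at 0 in 1 of 4, 7 of 10 and 7 of 11 libraries. The T and NK cell sum correlated with Socs2 at r = 0.92 and with Cish at 0.88 over the 25 libraries. Within the 11 CD11c- libraries r was 0.10 and 0.39.

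The sum of 12 alveolar macrophage markers was 296 to 5102 CPM in naive, 500.5 to 10697 CPM in CD11c+ and 248.6 to 516 CPM in CD11c- libraries. Chil3, which was also on the list linked to STAT6, was the largest part of it, with means of 1661, 2942 and 328 CPM. The sum thus mostly follows Chil3. Siglecf averaged 6.21, 6.38 and 1.56 CPM. Larger differences were seen for Plet1 (95.8, 85.2 and 0.938 CPM), Car4 (83.2, 53.7 and 0.747), Krt19 (36.4, 22.3 and 0.491) and Ear2 (48.6, 40.6 and 2.49). Only Marco was on average higher in CD11c- than in CD11c+ libraries (4.64, 4.14 and 6.69 CPM). Single libraries varied widely, with Plet1 at 3.12 to 420 CPM in CD11c+ libraries. In CD11c- libraries Car4 was at 0 in 2 and Krt79 in 10 of 11, and in CD11c+ libraries Krt79 was at 0 in 3 of 10. Within CD11c+ libraries the alveolar sum correlated with Socs2 at r = 0.76 (n = 10) and with Cish at 0.45, and the T and NK cell sum at 0.62 and 0.50. In knockout libraries the subset difference of Socs2 was also called without both Il9r KO libraries numbered 3, a fit added after the data were seen. Among these was the library with the highest alveolar sum, and a CD11c+ WT library had a sum of 6527 CPM. The part of the alveolar markers in the result was not tested. The sum of 8 melanoma markers was 331 to 1261 CPM in CD11c- and 1867 to 5590 CPM in CD11c+ libraries, and Gpnmb, which macrophages also express, averaged 674 and 3991 CPM of it. The other markers on average went both ways. Pmel averaged 42.7 and 35.5 CPM, Mlana 7.60 and 6.69 CPM and Mitf 31.4 and 25.9 CPM. Tyrp1 averaged 48.4 and 56.9 CPM, Dct 49.3 and 56.8 CPM, Tyr 5.33 and 5.91 CPM and Sox10 2.99 and 4.04 CPM. Within CD11c+ libraries this sum correlated with Socs2 at r = 0.93 (n = 10) and with Cish at 0.08, and the part of these genes in the result was not tested.

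Some immediate-early and stress genes, which also respond to the handling of cells, moved with Socs3, and their part in its level was not tested. Of 23 such genes, 0 were higher and 10 lower in CD11c+ than in CD11c- IM of knockout libraries, with a median of -0.58. Of all genes 5.91% were higher and 6.36% lower, and over the alternatives the number lower ran from 7 to 10. Klf2 fell by 1.66, Klf6 by 0.68, Fos by 0.58 and Ier3 by 1.42 on the log2 scale (adjusted p = 0.000102, 0.000712, 0.00303 and 0.00311 by edgeR). In WT libraries 2 were higher and 4 lower, where 5.44% and 6.1% of all genes were. Over the alternatives these counts ran from 0 to 2 and from 2 to 10. Against naive macrophages 2 were higher and 6 lower in CD11c+ WT IM, where 13.7% of all genes were higher and 9.54% lower. Jun fell by 1.12 there (adjusted p = 0.000524 by edgeR), in the libraries where Socs3 fell by 0.82.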

How the data were processed

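RNA of 25 libraries was sequenced. The authors deposited raw read counts per gene, made with STAR (2.7.10a) and featureCounts of Subread (2.0.3) on mm10 after FastQC (0.11.5), per the submitters' processing notes. The sources used here name neither the gene annotation nor the strand setting. The identifier column named the gene of the symbol column in 271 of 12853 rows that could be compared, and for 0 of the 5 members, so genes were taken by symbol. Depth is given with the results.

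Tests used edgeR 4.0.16 in R 4.3.3 (robust quasi-likelihood fits after filterByExpr and TMM scaling) with Benjamini-Hochberg adjustment over all genes of a fit. One fit held the 21 tumor libraries (13434 genes tested, 48 removed, 13 residual degrees of freedom, biological coefficient of variation 49.2%). The others held the 12 WT libraries (13170 genes, 8 degrees of freedom) and the 13 knockout libraries (13356 genes, 9 degrees of freedom). In all, 16 comparisons were made. Correlations used log2 CPM with a prior count of 2. Alternatives were DESeq2 1.42.0, limma-voom (limma 3.58.1), RLE scaling, no filter, fits of the contrasted groups alone, all genotypes together, replicate blocks and leaving out each library. The fits were tested on simulated data.

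The 5 genes and the gene lists were chosen with earlier results of these data known, and 1 gene and 1 list are not reported here. Beyond the 5 genes, up to 4 called genes per list and comparison could be named, by smallest adjusted p, and up to 5 genes per member by likeness. Same-numbered WT and knockout libraries deviated together from their group means over genes (r = 0.25 to 0.46 in the IL9R chimeras, 0.21 to 0.38 in ARG1 CD11c- libraries) but not in ARG1 CD11c+ libraries (-0.07 and -0.17). For CD11c- with CD11c+ libraries of a number, r was 0.19 to 0.40 in the IL9R chimeras, 0.05 to 0.35 in ARG1 WT and -0.13 and -0.15 in Arg1 CKO libraries. The labels do not say what a number marks.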

Additional observations from a re-analysis of the deposited data

How the results depend on the processing

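Of the values of the 5 genes under the alternatives, 1243 kept direction and side of the threshold, 23 lost the call, 7 gained it and 97 changed sign; the cause was not tested. Socs2 was called in CD11c+ against CD11c- IM under all 17 alternatives in WT and 19 in knockout libraries, and Cish under 17 of 17 and 18 of 19. Against naive macrophages, Cish and Socs2 in CD11c- IM were called under all 14 and 15 alternatives. In CD11c+ knockout IM the number called against naive was 2, but 1 with RLE scaling, 0 with the replicate block, 0 with the contrasted groups alone and 0 to 3 with 1 library left out. In CD11c+ WT IM it was 0 to 3 with 1 library left out. Cish in the CD11c+ knockout comparison was called by DESeq2 (adjusted p = 0.0137) and limma-voom (0.0362). It was also called with all genotypes together (adjusted p = 0.000799 by edgeR), which adds the WT libraries. Between subsets, Socs3 was called with all genotypes together (-0.52, adjusted p = 0.00276 by edgeR). That value includes the knockout libraries, in which Socs3 was already called.

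The same-numbered libraries are not stated to be paired. A replicate block called none of the 5 genes in any comparison of knockout with WT. It turned Cish for Il9r KO over both subsets to -0.014, Socs2 for Arg1 CKO in CD11c- IM to -0.0081, and Socs1 against naive in knockout CD11c- IM to 0.21 and CD11c+ IM to 0.0071. A block where the numbers deviated together gave Socs3 0.017 for Il9r KO in CD11c+ IM and 0.18 for its difference between subsets, Socs2 -0.035 for Arg1 CKO in CD11c- IM, and Socs1 0.0092 for the knockout minus WT subset difference.

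Other changes of sign were small. Without both Il9r KO libraries numbered 3, Socs3 was 0.012 in CD11c+ IM and 0.18 between subsets. With limma-voom, Pim1 was -0.0029 for Il9r KO over both subsets, Socs2 -0.034 for Arg1 CKO in CD11c- IM, Socs1 0.092 in CD11c+ IM, Socs3 -0.015 for the Il9r KO minus Arg1 CKO effect and Socs1 0.0076 for the knockout minus WT subset difference. Socs3 for Arg1 CKO in CD11c- IM was 0.0022 with RLE scaling, 0.0022 with DESeq2 and 0.0027 with the groups alone, and its effect difference was -0.0069 with RLE scaling and -0.0069 with DESeq2. With all genotypes together, a value covers both WT and knockout libraries. Pim1 was then -0.20 between subsets, where WT alone had 0.30. Against naive, Pim1 was -0.23 in CD11c+ IM (WT alone 0.14) and -0.027 in CD11c- IM (knockout alone 0.06). Socs1 was -0.042 in CD11c+ IM (WT alone 0.17) and 0.046 in CD11c- IM (knockout alone -0.07).

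Counts over all genes moved by more than 1.5 times. DESeq2 called 53 against 7 by edgeR for Il9r KO over both subsets, 29 against 3 in CD11c- and 34 against 4 in CD11c+ IM, and 25 against 5, 10 against 1 and 44 against 6 for Arg1 CKO. It called 29 against 2 for the effect difference and 1779 against 763 for CD11c+ knockout IM against naive, where the groups alone gave 45 and all genotypes together 4513. The groups alone gave 0, 0, 0 and 2 for the knockout comparisons per subset, limma-voom 2 in both CD11c+ comparisons and 4 for the effect difference. Blocks gave 6 for Il9r KO in CD11c- IM, 8 for Arg1 CKO over both subsets, 4 and 5 in CD11c- IM and 6 for the effect difference. All genotypes together gave 2957 between subsets (1550 in WT and 1649 in knockout libraries) and 5661 for CD11c- IM against naive (3057 and 3077). With 1 library left out, these counts ran from 805 to 1692 and 976 to 1710 between subsets, from 1293 to 3165 and 374 to 2995 for CD11c- IM against naive, and from 1032 to 3101 (WT) and 3 to 2123 (knockout) for CD11c+ IM. They ran from 3 to 9, 3 to 51 and 3 to 6 for Il9r KO, 0 to 12 for its difference between subsets, 3 to 8, 0 to 1 and 1 to 5 for Arg1 CKO, and 2 to 6 for the effect difference.

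With each library left out in turn, none of the values that changed sign had been called. For Il9r KO over both subsets, Cish ran from -0.17 to 0.47, Socs2 from -0.011 to 0.18, Socs1 from -0.064 to 0.20 and Pim1 from -0.19 to 0.37. For Il9r KO in CD11c- IM, Cish ran from -0.063 to 1.23. For Il9r KO in CD11c+ IM, Socs1 ran from -0.46 to 0.072 and Socs3 from -0.34 to 0.012, the latter without Il9r KO CD11c+ library 3. For the Il9r KO difference between subsets, Socs3 ran from -0.18 to 0.17, the latter without the same library. For Arg1 CKO over both subsets, Cish ran from -0.028 to 0.34. For Arg1 CKO in CD11c- IM, Cish ran from -0.20 to 0.39, Socs2 from -0.26 to 0.29, Socs3 from -0.14 to 0.17 and Pim1 from -0.18 to 0.21. For Arg1 CKO in CD11c+ IM, Cish ran from -0.22 to 0.51 and Socs1 from -0.33 to 0.30. For the Arg1 CKO difference between subsets, Cish ran from -0.39 to 0.39. For the Il9r KO minus Arg1 CKO effect, Cish ran from -0.35 to 0.30 and Socs3 from -0.089 to 0.11. For CD11c+ against CD11c- IM in WT, Socs1 ran from -0.22 to 0.076. For the knockout minus WT subset difference, Socs1 ran from -0.18 to 0.11, and was 0.029 without Il9r KO CD11c+ library 3. For CD11c- WT IM against naive, Socs1 ran from -0.084 to 0.55 and Pim1 from -0.34 to 0.0057. For CD11c+ WT IM against naive, Socs1 ran from -0.12 to 0.53 and Pim1 from -0.079 to 0.27. For CD11c- knockout IM against naive, Socs1 ran from -0.19 to 0.081 and Pim1 from -0.032 to 0.20.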
